A study of Mus musculus with 7 samples.

Results

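Broad distal accessible regions are long stretches of open chromatin that lie away from gene starts. They were defined here as ATAC-seq peaks at least 2000 bp wide that did not come within 1000 bp of any annotated transcription start site (TSS), with overlapping ones merged across 7 mouse B-cell progenitor libraries. ATAC-seq marks open chromatin by the DNA fragments it releases, and a peak is a stretch where fragments pile up above the background of the library. The definition gave 4639 peaks, which merged into 1746 regions, out of 124765 merged distal regions and 647973 peaks in all. Each of the 7 groups held 1 library, so no difference below could be set against the spread between animals and no test was made. Shares carry 95% Wilson intervals, which cover counting error only.

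The 3 WT libraries were pre-proB, proB and preB cells of Ergfl/fl mice, which carry floxed Erg alleles and no Cre. Erg KO pre-proB cells came from Rag1CreT/+;Ergdelta/delta mice, in which a Cre driven from Rag1 deletes Erg from common lymphoid progenitors onward, in T-cell as well as B-cell precursors. The 3 Rescue libraries were titled pre-proB, proB and preB and came from Rag1CreT/+;Ergdelta/delta;IgHVH10tar mice, which carry the same deletion together with an immunoglobulin heavy chain that is already rearranged and is expressed from its own locus. All cells were sorted from bone marrow by surface markers, and neither the sex of the animals nor whether animals were pooled is given for a library. All 3 Rescue libraries had a source name that gave a different stage from the title, and the titles were followed.

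B cells form in the bone marrow by steps in which pre-proB cells, still close to the common lymphoid progenitor, become committed proB cells that rearrange the heavy chain gene and then preB cells that carry a pre-B cell receptor. Distal open chromatin holds enhancers, which bind transcription factors such as Ebf1, Pax5, the E proteins, PU.1 and the ETS factor Erg and act on genes over a distance. Most accessible elements span only a few nucleosomes, and stretches of open chromatin kilobases long often hold clustered enhancers around genes of cell identity, although tandem repeats and collapsed copies in the genome assembly can also give long peaks.

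Short stretches of 200 bp are shown because the results below turn on them. Each is centred on the strongest summit of its region, is GRCm38 reference sequence of the + strand, and has in capitals the letters that match a motif searched. The regions named Gm49792 and Gm20670 were widest in pre-proB libraries and hold copies of a short repeat, with GTGTCACA found 5 and 3 times in these 200 bp. The Trp53i11 window heads the regions broad in WT proB and preB. The Erg and Pmf1 windows lie in regions that were broad in WT proB and preB, had a narrow peak in WT pre-proB and had none in Erg KO and Rescue pre-proB. The Foxo1 window is labelled by its nearest coding gene, while the gene with the nearest TSS is Gm38098. It lies in the only region with a broad WT pre-proB peak and no Erg KO pre-proB peak of 1000 bp or more. The Spib window lies in a region without a peak in all 3 pre-proB libraries. The last 4 were chosen after their values had been seen. Capitals mark the EBF1 motif CCCNNGGGA or its complement in the Erg and Pmf1 windows, the octamer in the Spib window, the PU.1 motif GAGGAAGT in the Trp53i11 window, and the E-boxes CAGCTG and CAGGTG or their complements, while the repeat units are left in lower case.
Gm49792, chr17:3020081-3020280: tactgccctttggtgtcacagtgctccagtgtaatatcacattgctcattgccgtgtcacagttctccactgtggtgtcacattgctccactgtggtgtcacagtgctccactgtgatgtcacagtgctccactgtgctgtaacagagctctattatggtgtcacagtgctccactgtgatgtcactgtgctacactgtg
Gm20670, chr7:64077639-64077838: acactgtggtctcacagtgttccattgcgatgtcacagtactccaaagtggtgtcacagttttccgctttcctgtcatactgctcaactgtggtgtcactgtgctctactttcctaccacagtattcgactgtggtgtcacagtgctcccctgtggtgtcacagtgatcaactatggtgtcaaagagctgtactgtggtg
Trp53i11, chr2:93192662-93192861: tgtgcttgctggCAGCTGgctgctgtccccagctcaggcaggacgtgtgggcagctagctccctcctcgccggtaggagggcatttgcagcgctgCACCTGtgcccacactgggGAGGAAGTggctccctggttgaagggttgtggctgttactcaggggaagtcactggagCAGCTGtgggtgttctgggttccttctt
Erg, chr16:95428317-95428516: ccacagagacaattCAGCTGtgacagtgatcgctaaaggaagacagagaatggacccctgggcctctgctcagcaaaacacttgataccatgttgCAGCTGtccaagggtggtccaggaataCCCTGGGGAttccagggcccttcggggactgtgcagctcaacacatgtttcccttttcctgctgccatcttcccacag
Pmf1, chr3:88395337-88395536: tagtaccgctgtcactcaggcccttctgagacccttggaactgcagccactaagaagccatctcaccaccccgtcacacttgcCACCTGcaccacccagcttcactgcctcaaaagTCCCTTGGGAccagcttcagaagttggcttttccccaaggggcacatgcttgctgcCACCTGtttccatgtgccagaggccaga
Foxo1, chr3:52396278-52396477: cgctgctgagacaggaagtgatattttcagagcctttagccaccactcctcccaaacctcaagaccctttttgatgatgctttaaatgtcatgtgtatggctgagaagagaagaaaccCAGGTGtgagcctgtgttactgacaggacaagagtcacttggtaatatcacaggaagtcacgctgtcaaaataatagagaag
Spib, chr7:44529714-44529913: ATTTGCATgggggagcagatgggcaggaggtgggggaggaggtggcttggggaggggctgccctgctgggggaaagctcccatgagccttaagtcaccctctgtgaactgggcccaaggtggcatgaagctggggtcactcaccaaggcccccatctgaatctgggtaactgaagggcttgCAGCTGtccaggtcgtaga

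The labelled stages were first set against the promoters of marker genes, using the deposited fold, the ratio of the pileup at a peak's summit to the background of its library. Pax5, the commitment factor, had a promoter fold of 3.68 in WT pre-proB, no promoter peak in Erg KO and Rescue pre-proB, and folds of 28.1 to 45.8 in the other 4 libraries. Of 12 T-cell genes, 6, 9 and 9 had a promoter peak in WT, Erg KO and Rescue pre-proB and 4 to 7 in the other libraries. Cd3e and Cd3d, for T-cell receptor subunits, had none anywhere, while Cd3g had folds of 10.5, 13.0 and 15.0 and Cd8a 19.2, 20.5 and 30.2 in those pre-proB libraries. The summed fold over the T-cell list was 164 to 208 in all 7. Promoters of all 10 plasmacytoid dendritic cell genes listed had a peak in each pre-proB library and 8 or 9 of 10 did in the others, and their summed fold was 443, 493 and 530 in WT, Erg KO and Rescue pre-proB against 235 and 324 in WT proB and preB and 298 and 335 in those stages of Rescue. Natural killer and innate lymphoid genes summed to 260, 272 and 307 in the pre-proB libraries against 184 to 223 elsewhere, and myeloid genes to 141, 148 and 166 against 44.3 to 82.0. The part of such cells in the pre-proB results was not tested. The promoter of Erg kept a peak in all 7 libraries, and an Erg deletion cannot be checked from peak lists. The lists hold no read totals, so depth is unknown beyond the background pileup. It was inferred from the step between fold values and ran from 3.49 in Rescue proB to 4.60 in Rescue pre-proB.

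Between 535 and 808 broad distal peaks were found per library. The WT stages had 535, 808 and 615 in the order pre-proB, proB and preB, Erg KO had 625 at its single stage, and the Rescue stages had 666, 627 and 763 in that order, or 0.559% to 0.903% of all peaks of a library. WT proB and Rescue preB were highest and WT pre-proB was lowest. The background pileup was 4.42, 3.85 and 4.16 in those 3 libraries, and the part of depth in the counts was not tested. Peaks near a TSS made up most wide peaks, since distal ones were 18.6% to 23.3% of all peaks of at least 2000 bp. The median broad distal peak was 2304 to 2335 bp wide, and 84 to 109 per library reached 3000 bp. The 3 pre-proB libraries held 14 to 17 peaks of 5000 bp or more, against 5 to 9 in the others. The members were chosen by width alone, and 2000 bp marks no break in it: each library had 138 to 200 distal peaks from 1900 to under 2000 bp, with a median fold of 44.1 to 60.9, and 110 to 163 from 2000 to under 2100 bp, with a median fold of 43.2 to 58.4.

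**Figure D1:**
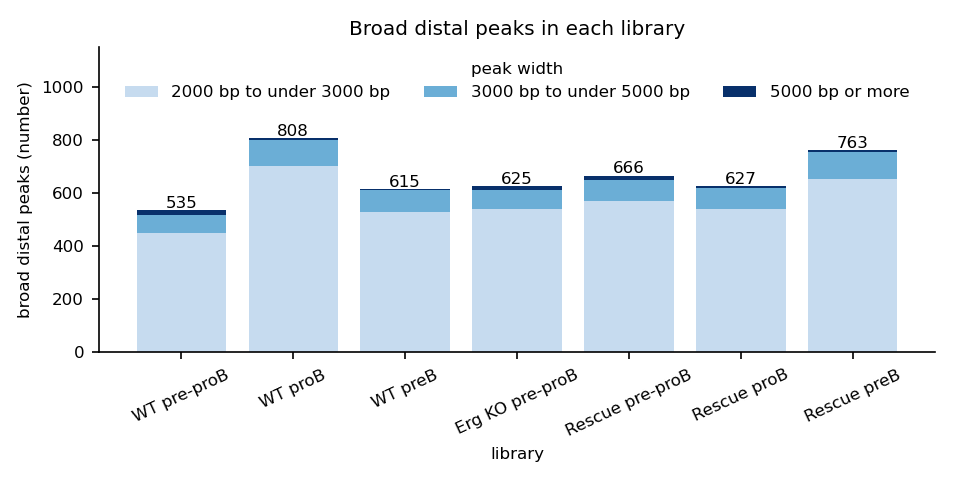
Number of broad distal peaks (y axis) in each of the 7 libraries (x axis), 1 library per bar, split by peak width. Counts run from 535 in WT pre-proB to 808 in WT proB, and peaks under 3000 bp make up most of every bar.

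Most regions reached the width in few libraries. A single library did so for 671 regions (38.4%), 2 libraries for 329, 3 for 280, 4 for 197, 5 for 84, 6 for 65 and all 7 for 120 (6.87%). Among the exact sets of libraries, WT proB alone had the most regions with 212. The 3 pre-proB libraries and no other shared 140 regions, the 4 proB and preB libraries and no other shared 121, and Erg KO and Rescue pre-proB without WT pre-proB shared 62. These sets follow from the widths that chose the members and are a description.

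Across the WT stages, 287 regions were broad in pre-proB alone, 319 in proB alone, 155 in preB alone, 50 in pre-proB and proB, 21 in pre-proB and preB, 258 in proB and preB and 176 at all 3 stages. The other 480 were broad only in Erg KO or Rescue cells. The order of pre-proB alone and proB alone turned with other choices: the counts were 809 and 775 at a minimum of 1500 bp, 58 and 45 at 3000 bp, and 311 and 181 with the 535 widest distal peaks of each list. Regions broad in WT pre-proB alone kept the width for 212 of 287 in the Erg KO library and for 215, 40 and 30 along the Rescue stages. Regions broad in WT proB and preB did so for 178 of 258 at the proB stage of Rescue and 207 at its preB stage, against 34 and 33 in Erg KO and Rescue at pre-proB. Of the 319 regions broad in WT proB alone, 55 were broad in Rescue proB and 64 in Rescue preB.

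A region that did not reach the width at a stage was seldom without a peak there. Of the 287 regions broad in WT pre-proB alone, 31 had no peak in WT proB and 50 had none in WT preB, while the rest had a peak of median width 1184 bp in WT proB and 1027 bp in WT preB. None of the 287 lacked a peak in Erg KO or Rescue pre-proB. In Rescue proB, 5 of them had no peak, against the 31 in WT proB, where over all distal WT pre-proB peaks 31.5% had none in Rescue proB and 40.2% none in WT proB. The counts of 5 and 31 are not alike, since the choice of regions used WT proB and not Rescue proB. Of the 258 regions broad in WT proB and preB, 4 had no peak in WT pre-proB, and 18 and 20 had none in Erg KO and Rescue at that stage, where over all distal WT proB peaks the shares were 36.6%, 37.0% and 35.8%. Wide peaks of one library could be several peaks in another: 332 of the 808 broad peaks of WT proB met 2 or more peaks of WT pre-proB. Of the 615 broad peaks of WT preB, 127 met 2 or more of WT proB. The share over all distal peaks, most of them narrower, was not computed. At the centres of the regions broad in WT pre-proB alone, a peak covered 97.2% of them in Erg KO and 96.2% in Rescue at the same stage, 53.0% in WT proB against 70.0% in Rescue proB, and 46.0% in WT preB against 57.5% in Rescue preB. The regions were chosen as not broad in WT proB and preB, with no such limit on Rescue. Part of the gaps between WT and Rescue at proB and preB therefore follows from the choice. At the centres of those broad in WT proB and preB the cover at pre-proB was 73.6% in WT, 63.6% in Erg KO and 66.7% in Rescue.

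**Figure D2:**
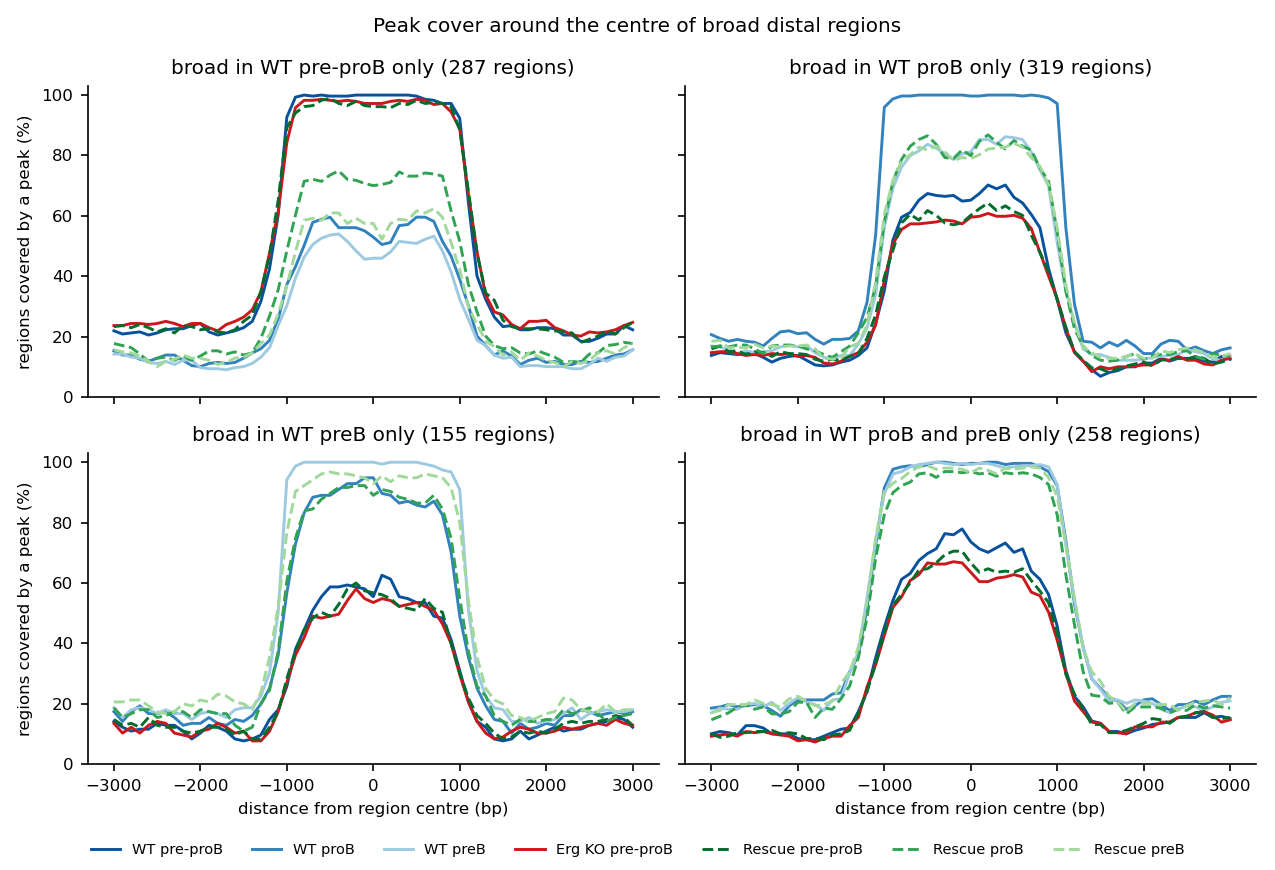
Share of regions covered by a peak (y axis, %) at each distance from the region's centre (x axis, bp), for 4 groups of regions by the WT stages at which they were broad, with 1 line per library. At the centre of the 287 regions broad in WT pre-proB alone, cover is 97.2% in Erg KO and 96.2% in Rescue pre-proB and 53.0% in WT proB. The groups were chosen by the WT libraries, so the WT lines follow in part from the choice.

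Broad peaks chosen in one library were next looked up in a library that had not chosen them. From pre-proB to proB in WT, 226 of 535 broad peaks (42.2%, 38.1 to 46.5) met a broad distal peak, and from proB back to pre-proB 228 of 808 did (28.2%, 25.2 to 31.4). From WT proB to preB the share was 53.8% (50.4 to 57.2) and from preB back to proB 71.1% (67.4 to 74.5). Complete absence was rare: 32 of 535 broad peaks of WT pre-proB (5.98%, 4.27 to 8.32) had no peak in WT proB, where 40.2% of all distal WT pre-proB peaks had none. From proB to pre-proB, 14 of 808 (1.73%, 1.03 to 2.89) had no peak in WT pre-proB, against 36.6% of all distal WT proB peaks. No broad peak of WT proB lacked a peak in WT preB, with an upper bound of 0.473%, and none of WT preB lacked one in WT proB, with an upper bound of 0.621%, where the shares over all distal peaks were 30.1% and 13.1%.

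Loss of at least 50% of the width, absence included, was closer to the background. It was seen for 183 of 535 broad peaks of WT pre-proB in WT proB (34.2%, 30.3 to 38.3), with 44.5% over all distal peaks, and for 320 of 808 of WT proB in WT pre-proB (39.6%, 36.3 to 43.0), with 42.9% over all. From WT proB to preB it was seen for 126 of 808 (15.6%), with 34.6% over all, and from preB to proB for 30 of 615 (4.88%), with 14.7% over all. Broad peaks had a median fold of 50.3 to 62.2 per library against 6.65 to 7.75 for the other distal peaks, so width and strength moved together and their parts were not tested.

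**Figure D3:**
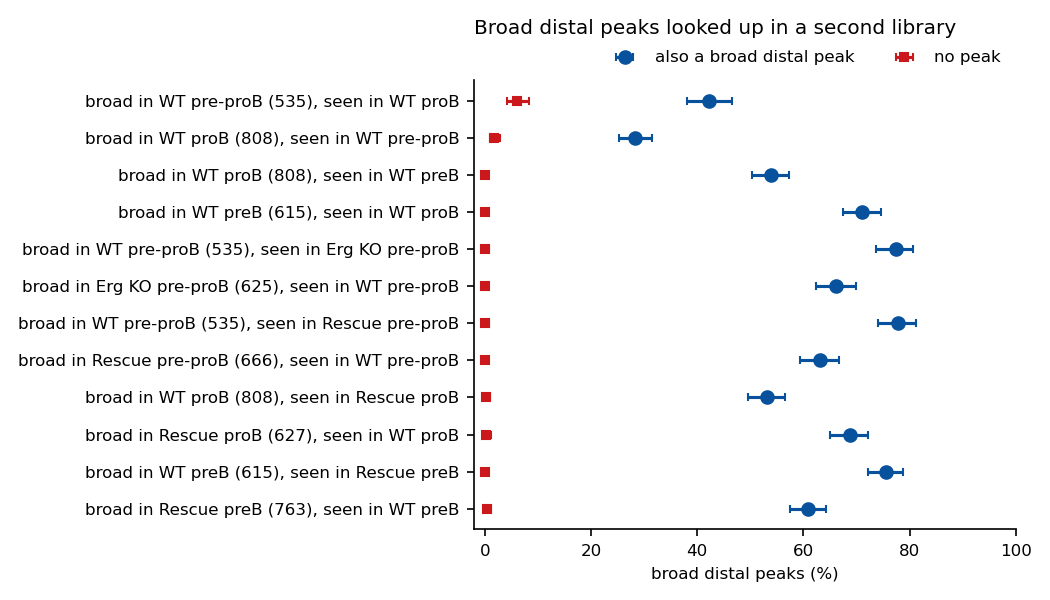
Share of the broad distal peaks of a first library (x axis, %) that met a broad distal peak (blue) or no peak (red) in a second library, with 95% Wilson intervals and the number of peaks in brackets. WT pre-proB and Erg KO pre-proB share 77.4% in this direction, against 42.2% from WT pre-proB to WT proB.

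Erg KO pre-proB cells were set beside WT pre-proB cells to see how far deletion of Erg moves these regions at the stage where B-cell development stops in its absence. Of the 535 broad peaks of WT pre-proB, 414 were broad in Erg KO pre-proB (77.4%, 73.7 to 80.7), and 414 of 625 were broad in the other direction (66.2%, 62.4 to 69.8). No broad peak of either library lacked a peak in the other, with upper bounds of 0.713% and 0.611%, where 7.87% of all distal WT peaks and 15.2% of all distal Erg KO peaks had none. A peak no longer than 50% of the WT width, or none, was found for 14 of 535 (2.62%, background 8.48%), and in the other direction for 37 of 625 (5.92%, background 16.4%). Only 1 of 535 broad WT peaks lay where Erg KO had no peak of 1000 bp or more (0.187%), and 15 of 625 broad Erg KO peaks lay where WT had none (2.40%). Over all distal peaks, most of which are narrow in both libraries, these shares were 89.0% and 90.9%.

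That 1 region was at chr3:52395424-52398462, in intergenic sequence 26946 bp from the TSS of the gene model Gm38098, with Foxo1 as the nearest coding gene at 127088 bp. Foxo1 is a forkhead factor needed for early B-cell commitment. The order of values for the stages of a genotype is pre-proB, proB, preB here and in what follows, and a width of 0 bp stands for no peak. The widest peak there measured 2840, 2967 and 2923 bp in the WT stages, 962 bp in Erg KO and 1335, 2949 and 2961 bp in the Rescue stages. Erg KO pre-proB was the narrowest and Rescue pre-proB the next, and the other 5 libraries were within 2840 to 2967 bp. The summit fold did not follow the width, at 128, 123 and 141 in the WT stages, 116 in Erg KO and 129, 117 and 132 in the Rescue stages. Erg KO had 3 separate peaks in the region and Rescue pre-proB 2 where the others had 1.

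The 3 widest of the 15 were of a different kind. A region at chr3:3021247-3025139, nearest to Gm27460, measured 852, 564 and 276 bp in the WT stages, 3176 bp in Erg KO and 2622, 334 and 236 bp in the Rescue stages, and 40.5% of its bases were masked as repeats in the reference. In an intron of Tmem267 a region at chr13:119597466-119600640, with 66.0% repeat sequence, measured 985, 3144 and 3057 bp in the WT stages, 3142 bp in Erg KO and 1947, 3089 and 3059 bp in the Rescue stages, so that WT pre-proB was the narrow library among 7. The last, at chrY:90737357-90744999 near the pseudogene Mid1-ps1, measured 895, 888 and 802 bp in the WT stages, 2862 bp in Erg KO and 7564, 4693 and 5279 bp in the Rescue stages. A further region on this chromosome, near Gm47283 at chrY:90804187-90813922, was the widest that was under 1000 bp in WT proB or preB and broad in Rescue, and measured 329, 373 and 359 bp in the WT stages, 1914 bp in Erg KO and 3962, 6303 and 5436 bp in the Rescue stages. On both, the 3 WT libraries were under 1000 bp and the Erg-deleted libraries above 1900 bp. The part of the animals' sex in the chromosome Y values was not tested.

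Rescue cells were compared with WT at the same titled stage. At pre-proB, 416 of 535 broad WT peaks were broad in Rescue (77.8%, 74.0 to 81.1), and 420 of 666 in the other direction (63.1%, 59.3 to 66.6). At proB the shares were 53.1% (49.6 to 56.5) from WT and 68.7% (65.0 to 72.2) from Rescue. At preB they were 75.6% (72.1 to 78.8) from WT and 60.9% (57.4 to 64.3) from Rescue. With Rescue stages taken from the source names, the shares from WT were 42.1%, 29.3% and 64.4% in the order pre-proB, proB and preB, each below the share by title. From Rescue they were 29.6%, 35.6% and 63.0%, below the share by title at pre-proB and proB and above it at preB. By title the share from WT was lowest at proB, and there WT had 181 more broad peaks than Rescue, while Rescue had more at pre-proB and preB. No WT broad peak was without a Rescue peak at pre-proB (background 6.67%) or preB (background 9.66%), and 2 of 808 were at proB (0.248%, background 23.9%). From Rescue to WT, 0 of 666 (background 17.5%), 2 of 627 (0.319%, background 23.3%) and 3 of 763 (0.393%, background 20.6%) were without a peak at pre-proB, proB and preB.

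Regions that fell under 1000 bp were most numerous among WT proB peaks. In Rescue proB, 77 of 808 (9.53%, 7.69 to 11.8) met no peak of 1000 bp or more, against a background of 89.4% of all distal WT proB peaks, and in the other direction 24 of 627 did (3.83%, 2.59 to 5.63, background 87.4%). At pre-proB 9 of 535 WT peaks (1.68%, background 87.9%) and 24 of 666 Rescue peaks (3.60%, background 91.3%) did so. At preB the counts were 8 of 615 (1.30%, background 85.5%) and 35 of 763 (4.59%, background 89.8%). Loss of at least 50% of the width was seen for 124 of 808 broad WT proB peaks in Rescue proB (15.3%, background 27.5%) and for 46 of 627 Rescue proB peaks in WT proB (7.34%, background 25.7%).

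The widest regions of these contrasts included a region 1797 bp from the TSS of Lef1, a TCF-family factor of early lymphocytes, at chr3:131105631-131108674. It measured 2349, 2832 and 2614 bp in the WT stages, 1387 bp in Erg KO and 919, 2539 and 3044 bp in the Rescue stages. Erg KO and Rescue pre-proB were the narrow pair and the other 5 libraries were broad, with a pre-proB fold of 8.34 in WT, 4.95 in Erg KO and 5.36 in Rescue against 21.8 to 60.4 in proB and preB cells. A region over Rabepk, 3629 bp from the TSS of the chaperone gene Hspa5, lay at chr2:34775724-34780838 and measured 3233, 265 and 0 bp in the WT stages, 5166 bp in Erg KO and 788, 4385 and 0 bp in the Rescue stages. It was broad in 1 library of each genotype, WT pre-proB, Erg KO pre-proB and Rescue proB, and absent from both preB libraries. In Olfr164, an olfactory receptor gene, a region at chr16:19299496-19302259 that was 99.5% repeat sequence measured 2764, 0 and 0 bp in the WT stages, 1696 bp in Erg KO and 851, 0 and 0 bp in the Rescue stages.

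At proB, the WT peak in Mroh2a at chr1:88245651-88250453 was the widest that narrowed below 1000 bp in Rescue. It measured 963, 4803 and 700 bp in the WT stages, 906 bp in Erg KO and 918, 668 and 686 bp in the Rescue stages, so WT proB stood alone among the 7. Intronic regions of Snx9, an endocytosis gene, at chr17:5884953-5887833 and of Gm15997 at chr5:149524365-149527156 had WT proB widths of 2881 and 2792 bp and Rescue proB widths of 993 and 889 bp. At preB the regions near Gpam, an enzyme of glycerolipid synthesis, at chr19:55136555-55139180 and in Nav2 at chr7:49305769-49308137 were broad in WT proB and preB, at 2626 and 2467 bp and at 2339 and 2288 bp, and under 1000 bp in every Erg KO and Rescue library. In Mtss1, at chr15:59039605-59042107, only Rescue preB was under 1000 bp, at 698 bp. The cell polarity gene Pard3 held a region at chr8:127438294-127442190 that measured 731, 843 and 920 bp in the WT stages, 806 bp in Erg KO and 1604, 1603 and 3897 bp in the Rescue stages and was broad in Rescue preB alone.

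Regions broad in proB or preB could be looked up in the 3 pre-proB libraries, which their choice did not use. Of the 808 broad peaks of WT proB, 751 (92.9%, 91.0 to 94.5) had a peak in all 3. Erg KO and Rescue pre-proB each lacked a peak at 50 (6.19%, 4.73 to 8.07), against 14 (1.73%) in WT pre-proB, where 37.0%, 35.8% and 36.6% of all distal WT proB peaks had none. A peak in WT pre-proB and none in either Erg-deleted pre-proB library was found at 33 (4.08%, 2.92 to 5.68, background 3.16%), and the reverse at 1 (0.124%, 0.0219 to 0.698, background 2.86%). For the 615 broad peaks of WT preB the same states were found at 29 (4.72%, 3.30 to 6.69, background 3.37%) and 2 (0.325%, 0.0892 to 1.18, background 2.65%). The forward shares were thus near those of all distal peaks and the reverse shares below theirs.

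The 33 and 29 peaks lay in 47 regions, 28 of them in introns, 13 intergenic, 4 in exons and 2 in untranslated regions. In 2 of the 47, at Fam53b and Agpat4, Erg KO and Rescue held a peak elsewhere in the merged region. The regions named from here to the end of the next paragraph were chosen after their values had been seen. An intron of Erg itself held a region at chr16:95426984-95430585, 28660 bp from its nearest TSS, that measured 624, 2168 and 2033 bp in the WT stages, 0 bp in Erg KO and 0, 2044 and 3572 bp in the Rescue stages. It was broad in all 4 proB and preB libraries, those with Erg deleted included, and was without a peak only in the Erg-deleted pre-proB libraries. The summit fold was 12.4, 91.8 and 72.3 in the WT stages. Near Lmo2, a cofactor of stem cells and early progenitors, the region at chr2:103934165-103937171 measured 291, 3007 and 1115 bp in the WT stages, 0 bp in Erg KO and 0, 1009 and 720 bp in the Rescue stages, and 59741 bp from Cxcr4, the chemokine receptor that holds progenitors in the marrow, the region at chr1:128652031-128654046 measured 281, 2016 and 309 bp in the WT stages, 0 bp in Erg KO and 0, 553 and 441 bp in the Rescue stages. Both were broad in WT proB and in no other library. An intron of Pmf1 held a region at chr3:88393847-88397153 that measured 480, 3195 and 2933 bp in the WT stages, 0 bp in Erg KO and 0, 1538 and 2866 bp in the Rescue stages.

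Broad peaks of WT pre-proB were looked up in Rescue proB in the same way. Of the 535 broad peaks of WT pre-proB, 6 had no peak in Rescue proB (1.12%, 0.515 to 2.42, background 31.5%), against 32 in WT proB (5.98%, background 40.2%). A peak in Rescue proB with none in WT proB and WT preB was found at 24 of 535, a lower share than the 11.1% of all distal WT pre-proB peaks in that state. An intron of Runx2, a factor of plasmacytoid dendritic cells and bone, held one of the 24 at chr17:44599983-44603671 that measured 2107, 0 and 0 bp in the WT stages, 3689 bp in Erg KO and 1798, 599 and 0 bp in the Rescue stages. Another, in an intron of Snx18 at chr13:113607467-113614511, measured 5134, 0 and 0 bp in the WT stages, 6962 bp in Erg KO and 5432, 689 and 0 bp in the Rescue stages. A region in Mef2c, a MADS-box factor of lymphoid progenitors, at chr13:83533786-83536824 measured 3039, 0 and 0 bp in the WT stages, 1413 bp in Erg KO and 1643, 684 and 200 bp in the Rescue stages. Rescue proB widths in these 3 were 599 to 689 bp. In WT pre-proB, WT proB and Rescue proB the promoter fold of Siglech was 101, 18.6 and 48.1. That of Cd8a was 19.2, 0 and 6.90, where 0 is no peak. Other genes of their lists differed from these 2. Over the same 3 libraries the summed fold was 443, 235 and 298 for the plasmacytoid dendritic cell list. For the T-cell list it was 164, 208 and 199. The part of pre-proB cells or plasmacytoid dendritic cells in these peaks was not tested.

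The widest region of all lay in intergenic sequence at chr17:3006018-3023951, near Gm49792. It measured 17904, 1703 and 1116 bp in the WT stages, 17895 bp in Erg KO and 9657, 2031 and 2029 bp in the Rescue stages, and 52.5% of it was repeat sequence. Together with Gm20670 at chr7:64073354-64085176, Gm23215 at chr16:3231465-3242579, a second region by Gm49792 at chr17:3024186-3034168 and Gm27878 at chr4:3061366-3069986, it formed a set of 5 with 47.2% to 55.1% repeat sequence, against a median of 15.6% over all members. All 5 were widest in a pre-proB library. The region by Gm20670 measured 11760, 2311 and 1114 bp in the WT stages, 10799 bp in Erg KO and 8368, 2136 and 1120 bp in the Rescue stages and that by Gm23215 10917, 1964 and 1792 bp in the WT stages, 10870 bp in Erg KO and 11114, 3099 and 1875 bp in the Rescue stages. Mapping of reads in repeats was not examined, and its part in these widths was not tested.

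Of the other 5 among the 10 widest, that of Mid1-ps1 on chromosome Y held 43.9% repeat sequence and the rest 9.12% to 20.2%. The 3' part of Irf8 and the sequence beyond it, at chr8:120749909-120760756 and 11270 bp from the TSS, measured 8563, 1378 and 1371 bp in the WT stages, 10710 bp in Erg KO and 8655, 1355 and 1443 bp in the Rescue stages, with 14.5% repeat sequence. Irf8, a factor of dendritic cells and early B cells, lies within the long read-through model Gm20388. The 3 pre-proB libraries stood together at 8563 to 10710 bp and the other 4 were at 1355 to 1443 bp. Next to Irf2bp2, a corepressor of interferon regulatory factors, the region in Gm26759 at chr8:126583549-126590850 divided the libraries in the same way and measured 7298, 1428 and 1540 bp in the WT stages, 7198 bp in Erg KO and 7283, 1941 and 1423 bp in the Rescue stages. A region over the end of Mroh2a, 9155 bp from the TSS of the centromere chaperone Hjurp, at chr1:88252082-88268351 measured 7607, 13891 and 5703 bp in the WT stages, 3652 bp in Erg KO and 6785, 8296 and 6333 bp in the Rescue stages and was broad everywhere. On chromosome 12, Gm49692 at chr12:20226764-20234459 measured 3988, 7382 and 7491 bp in the WT stages, 3923 bp in Erg KO and 3027, 7684 and 4348 bp in the Rescue stages.

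Among regions broad in WT proB alone of the WT stages, the widest after that of Mroh2a were in Zfp992 at chr4:146453912-146458757, with 4736 bp in WT proB and over 2000 bp in Rescue proB and preB, and in Il3ra, the interleukin 3 receptor chain, at chr14:14351103-14355734, with 4632 bp. In Il3ra the other 6 libraries had peaks of 10133 to 10938 bp that came near a TSS and so were not distal, and the region is therefore a peak that was shorter in WT proB. Regions broad in WT preB alone included those near Gm42427 at chr5:44161846-44165406 and Gm15427 at chr1:95448915-95452266, with 3561 and 3352 bp in WT preB and at most 1884 and 1461 bp elsewhere.

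Dnajb13, at chr7:100499633-100505765, and a region 31295 bp from Il21r, a cytokine receptor, at chr7:125634832-125639370 were broad in WT pre-proB and proB. The Il21r region measured 4457, 2242 and 1920 bp in the WT stages, 4218 bp in Erg KO and 4536, 2125 and 1926 bp in the Rescue stages, with the 3 pre-proB libraries at 4218 to 4536 bp. Regions broad in WT proB and preB were led by an intron of Trp53i11 at chr2:93190638-93196120, which measured 1615, 5483 and 2613 bp in the WT stages, 1571 bp in Erg KO and 1552, 2622 and 2706 bp in the Rescue stages. Sequence 9852 bp from Slco4a1, an organic anion transporter, at chr2:180441594-180446393 measured 1446, 4743 and 4694 bp in the WT stages, 1369 bp in Erg KO and 1397, 4399 and 3618 bp in the Rescue stages. An intron of the protease gene Adamts7 at chr9:90194989-90199680 measured 955, 3424 and 4519 bp in the WT stages, 233 bp in Erg KO and 306, 2197 and 2738 bp in the Rescue stages, with Erg KO and Rescue pre-proB at 233 and 306 bp against 955 bp in WT pre-proB. A second Adamts7 region at chr9:90200095-90202933 had a WT pre-proB peak of 488 bp and none in Erg KO and Rescue pre-proB.

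Regions at genes of known function were counted over lists of B-lineage, signalling and other cell type genes. By host or nearest gene, 38 of 155 listed genes (24.5%) had a region, beside 974 of all 21911 coding genes (4.45%). Housekeeping genes were at 20.0%. The share of listed genes at other distal regions was not computed, so a preference of broad regions for these genes was not tested. B-lineage transcription factors had 26 regions at 14 of 30 genes. The list rose to 45 regions at 20 genes when a region also counted for its nearest coding gene or any coding host, a count added after values had been seen that takes in Irf8, Foxo1 and Ebf1. Other lists rose too by this wider count. Pre-B cell receptor genes had 13 regions at 7 genes, proliferation and survival genes 11 at 7, and cytokine and homing receptors 8 at 6. Stem and progenitor genes had 5 at 4, natural killer and innate lymphoid genes 5 at 2, housekeeping genes 4 at 3 and myeloid genes 1 at 1. By host or nearest gene alone, genes of the pre-B cell receptor and its signalling had 8 regions at 4 of 20 genes. Cytokine and homing receptors had 6 at 5 of 12, and V(D)J recombination genes 1 region, in the end-joining gene Xrcc5. The immunoglobulin heavy chain locus held 4 regions, and the Igk, Tcra and Tcrb loci held none.

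Ebf1 and Pax5, which specify and commit the B lineage, had intronic or upstream regions with different orders across libraries. The Ebf1 region, in the upstream model Gm37695 and 3578 bp from the TSS of Ebf1, at chr11:44610786-44613739, measured 1085, 2954 and 1616 bp in the WT stages, 1095 bp in Erg KO and 1201, 1644 and 1565 bp in the Rescue stages and was broad in WT proB and in no other library. In Pax5 an intron 37014 bp from the TSS, at chr4:44670737-44673394, measured 2487, 1057 and 1272 bp in the WT stages, 2334 bp in Erg KO and 2388, 2507 and 2553 bp in the Rescue stages, with the 2 WT proB and preB libraries narrowest. The second Pax5 region, 3884 bp from the TSS at chr4:44704048-44706524, measured 733, 2477 and 1304 bp in the WT stages, 704 bp in Erg KO and 606, 1451 and 1341 bp in the Rescue stages, with the 3 pre-proB libraries lowest at 606 to 733 bp.

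Spib, an ETS factor close to PU.1, Irf4, which acts at the preB stage, and Cd24a, a surface marker used to sort the stages, shared a pattern. The Spib region at chr7:44528774-44530812 measured 0, 1648 and 2039 bp in the WT stages, 0 bp in Erg KO and 0, 1617 and 6367 bp in the Rescue stages, and its 6367 bp Rescue preB peak came near a TSS. Intergenic sequence 26103 bp from Irf4, at chr13:30720657-30723123, measured 0, 1531 and 2467 bp in the WT stages, 0 bp in Erg KO and 0, 960 and 1213 bp in the Rescue stages. The region near Cd24a at chr10:43583724-43585842 measured 0, 1251 and 2119 bp in the WT stages, 0 bp in Erg KO and 0, 1720 and 1445 bp in the Rescue stages. All 3 pre-proB libraries had no peak at these regions, and every proB and preB library had one. WT preB was the only library in which they were broad distal peaks. Of the 3 regions, that near Cd24a had the lowest summit fold. Absence from all 3 pre-proB libraries was found at 19 of 615 broad peaks of WT preB (3.09%, 1.99 to 4.77). The share over all distal WT preB peaks was not computed, and members with the full pattern were not counted.

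Regions clustered in and beyond Irf8 and Mef2c. The Irf8 regions at chr8:120741286-120744853 and chr8:120796145-120799204 measured 3469, 882 and 1567 bp in the WT stages, 2453 bp in Erg KO and 1562, 1142 and 1133 bp in the Rescue stages and 3001, 611 and 690 bp in the WT stages, 3022 bp in Erg KO and 3011, 1651 and 725 bp in the Rescue stages. In the second the 3 pre-proB libraries stood above the rest, and in the first WT and Erg KO pre-proB did. Between them, the region at chr8:120745202-120749599 measured 4398, 1705 and 2973 bp in the WT stages, 2215 bp in Erg KO and 1444, 2948 and 3431 bp in the Rescue stages, so that pre-proB libraries did not stand apart there. An intronic region of Mef2c 2491 bp from a TSS, at chr13:83527357-83533047, was broad in all 7 libraries, at 2415 to 5674 bp. In Erg a second region, 16439 bp from its TSS at chr16:95438587-95442806, measured 2572, 3121 and 1517 bp in the WT stages, 2607 bp in Erg KO and 3379, 2134 and 2596 bp in the Rescue stages and, unlike the first, was broad in Erg KO and Rescue pre-proB.

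Further factor genes differed between stages in both directions. Sox4, which supports early B-cell survival, had a region at chr13:28957288-28960990 that was 2725 to 3703 bp in all 7 libraries, and one at chr13:28949299-28951662 that measured 2317, 4115 and 4207 bp in the WT stages, 2342 bp in Erg KO and 4876, 1585 and 4159 bp in the Rescue stages, where the 4 widest peaks came near a TSS. Fli1, an ETS factor close to Erg, had 2 regions. The one at chr9:32542976-32545113 was broad in WT proB alone, at 2138 bp, and that at chr9:32615540-32618364 in Erg KO and Rescue pre-proB alone, at 2787 and 2825 bp against 1458 bp in WT pre-proB. Elf1, another ETS factor, had regions at chr14:79520806-79523174 and chr14:79531779-79534023 that measured 1602, 2144 and 2364 bp in the WT stages, 814 bp in Erg KO and 1894, 2278 and 2244 bp in the Rescue stages and 2072, 1925 and 829 bp in the WT stages, 2211 bp in Erg KO and 2244, 1093 and 796 bp in the Rescue stages, the second narrow in the 3 libraries WT preB, Rescue proB and Rescue preB. Bach2, a repressor of myeloid genes in B-cell precursors, had one at chr4:32169553-32171620 that measured 526, 1969 and 1811 bp in the WT stages, 523 bp in Erg KO and 526, 1946 and 2068 bp in the Rescue stages, with 523 to 526 bp in the pre-proB libraries. The Runx1 region at chr16:92620606-92622646, at a factor of blood stem cells and lymphocytes, was 2041 bp in WT proB and at most 976 bp elsewhere.

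Regions of signalling and receptor genes differed in which libraries held a broad peak. The region 27851 bp from Lyn, a kinase of the B cell receptor, was 3174 to 3597 bp in all 7. The one 4860 bp from Il2ra, which encodes the CD25 marker of preB cells, was 2357 to 2830 bp in all 7. Prkcb, the protein kinase C of B cell receptor signalling, had a region at chr7:122388768-122391846 that measured 1431, 3068 and 2458 bp in the WT stages, 1773 bp in Erg KO and 1848, 2477 and 2955 bp in the Rescue stages and was broad in the 4 proB and preB libraries only. The region in Gm28694 whose nearest coding gene is Ralgps2, at chr1:156995388-156998826, measured 972, 3277 and 2169 bp in the WT stages, 885 bp in Erg KO and 835, 3352 and 3230 bp in the Rescue stages and divided the libraries likewise. Bcl2l11, which promotes death of developing lymphocytes, had a region in the neighbouring gene Acoxl, 1023 bp from the TSS of Bcl2l11, at chr2:128122337-128125015 that measured 740, 2424 and 2637 bp in the WT stages, 754 bp in Erg KO and 751, 2578 and 2382 bp in the Rescue stages, with 740 to 754 bp in the 3 pre-proB libraries. Syk, the kinase that carries the pre-B cell receptor signal, had a region at chr13:52648890-52651684 that measured 707, 339 and 2371 bp in the WT stages, 956 bp in Erg KO and 399, 1209 and 2737 bp in the Rescue stages, broad in both preB libraries and no other. A further Syk region at chr13:52602897-52605687 measured 1688, 290 and 503 bp in the WT stages, 2189 bp in Erg KO and 2781, 636 and 536 bp in the Rescue stages, broad in Erg KO and Rescue pre-proB only.

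Lists of other cell types also had regions by host or nearest gene alone. The share of genes with one was highest for stem and progenitor cells, 20.0% for plasmacytoid dendritic cells and for natural killer and innate lymphoid cells, 8.33% for T cells and 0 for myeloid cells. This compares with 46.7% of B-lineage factors, 20.0% of pre-B cell receptor genes and 4.45% of all coding genes. Plasmacytoid dendritic cell genes had 3 regions, all broad in Erg KO pre-proB. The Siglech region at chr7:55771609-55781552, at the gene for a lectin of these cells, measured 5563, 0 and 324 bp in the WT stages, 7137 bp in Erg KO and 6215, 318 and 404 bp in the Rescue stages, with no overlap between the 3 pre-proB libraries and the rest. Stem and progenitor genes had 3 regions at 3 of 10 genes. The Mecom region at chr3:30412587-30415026 measured 2264, 546 and 340 bp in the WT stages, 2346 bp in Erg KO and 2440, 955 and 757 bp in the Rescue stages. The Hlf region at chr11:90387141-90389299, 1596 bp from a TSS, measured 827, 713 and 308 bp in the WT stages, 2677 bp in Erg KO and 4035, 2159 and 1067 bp in the Rescue stages, higher in all 4 Erg-deleted libraries than in any WT library, with the Erg KO and Rescue pre-proB peaks reaching a TSS. How many members, or distal regions of any width, separated the libraries as the Siglech or the Hlf region did was not counted. Gata3, a T-cell and innate lymphoid factor, had an intronic region at chr2:9870964-9873260 that measured 1153, 2297 and 565 bp in the WT stages, 2182 bp in Erg KO and 2214, 677 and 632 bp in the Rescue stages. T-cell genes had 1 region at 1 of 12 genes, natural killer and innate lymphoid genes 2 at 2 of 10, erythroid genes 1 at 1 of 10 and myeloid genes 0 at 10. Proliferation and survival genes had 6 at 3 of 12, and housekeeping genes 3 at 2 of 10.

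**Figure D4:**
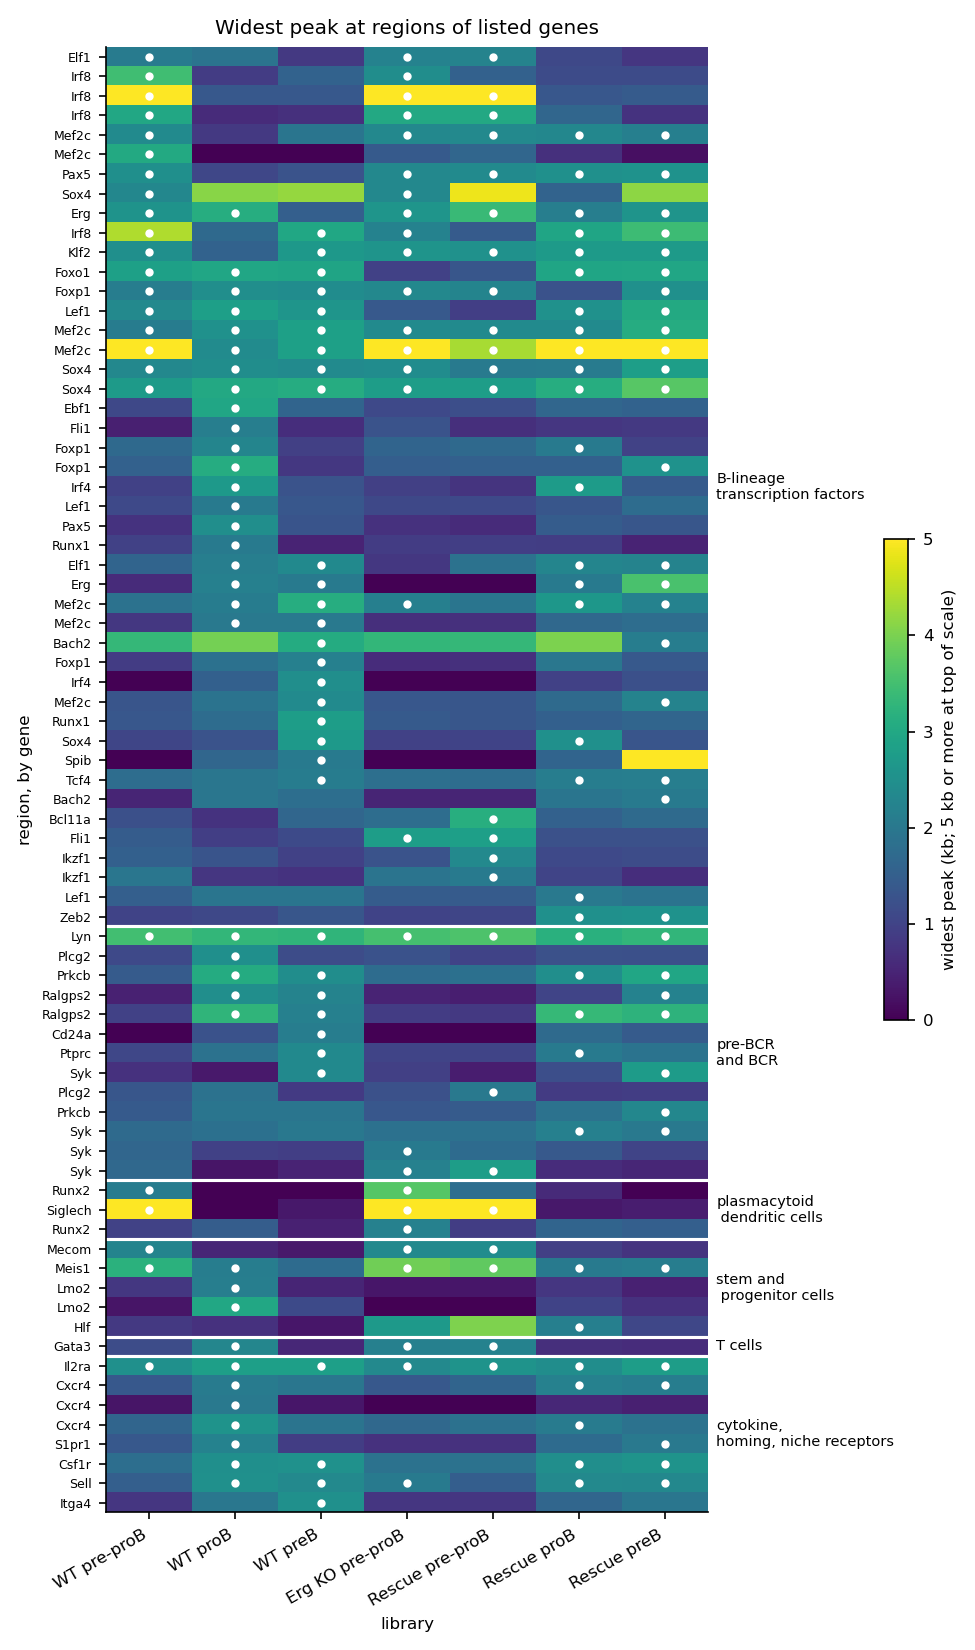
Widest peak (colour, kb) at each region of listed genes (y axis), counted for any coding host or nearest coding gene, in the 7 libraries (x axis), with a white dot where the peak is a broad distal peak. Several genes have more than 1 line. The Siglech line is 5563 to 7137 bp in the 3 pre-proB libraries and at most 404 bp in the others.

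Few genes had several regions. Of 1438 genes named by host or nearest TSS, 1218 had 1 region, 163 had 2 and 57 had 3 or more. The 13 regions of Gm20388 belong to a read-through model that spans Irf8, Gse1, Zfpm1, Galnt2 and others, so that they are not regions of a single gene. The 8 regions of C230088H06Rik lie in a cluster of related zinc finger genes on chromosome 4, where reads of copies could be misplaced. Fgfr2, by a long model, and Trio, a guanine nucleotide exchange factor, had 5 each, and 4 each were held by Akap13, Cdk6, Foxp1, Gm14453, Il21r, Mef2c, Pde4d, Sik1, St8sia4, Syk, Ubac2 and Zmiz1. In Trio the region at chr15:27825760-27829271 measured 1066, 3136 and 3378 bp in the WT stages, 1047 bp in Erg KO and 805, 2831 and 2967 bp in the Rescue stages and that at chr15:27754073-27756077 258, 1413 and 2005 bp in the WT stages, 0 bp in Erg KO and 0, 1115 and 1512 bp in the Rescue stages. On the chromosome, 577 regions (33.0%) lay within 50 kb of another and 170 (9.74%) within 5 kb. These shares were not computed for other distal regions.

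Where a region lay in the genome differed little from the other distal regions. The middle of 960 regions was in an intron (55.0%, 52.6 to 57.3), against 55.2% of the other 123019 distal regions. Intergenic sequence held 38.9% against 40.0%, exons 3.26% against 2.88% and untranslated regions 2.86% against 1.98%. The median distance to a TSS was 12388 bp against 13088 bp. The CpG ratio, the number of CpG dinucleotides over that expected from base composition, exceeded 0.6 in 80 members (4.58%) against 1.72%, in 17 of the 120 regions broad in all 7 libraries (14.2%) and in 2 of the 155 broad in WT preB alone (1.29%). Regions of over 80% repeat sequence were 4 of 1746 (0.229%) against 2.80% of other distal regions. Chromosome X held 21 members, 0.731% of its distal regions, chromosome Y held 4 beside 43 other distal regions, or 8.51%, and the share was 0.951% to 1.62% on the other chromosomes.

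The host or nearest coding gene of a region usually had an open promoter. Of these 1330 genes, 84.7% to 87.6% per library had a peak within 1000 bp of a TSS, against 61.4% to 65.5% of all 21911 coding genes. The share for genes of the other distal regions was not computed, so a trait particular to broad regions cannot be read from this. For the 265 genes of regions broad in WT pre-proB alone the share was 87.9%, 87.2% and 84.2% along the WT stages. For the 236 genes of regions broad in WT proB and preB it was 88.1%, 91.1% and 89.8%. Most of these promoters had a peak also at stages at which the region was not broad.

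A set of 10 motifs was searched on both strands within 100 bp of the strongest summit, a property the choice by width did not use. The EBF1 motif CCCNNGGGA was in 159 of 1746 regions (9.11%, 7.85 to 10.5), against 5.66% of the other distal regions. Among members it followed the stage: 3.83% (2.15 to 6.73) of regions broad in WT pre-proB alone held it, 13.8% (10.4 to 18) of those in proB alone, 12.9% (8.51 to 19.1) of those in preB alone and 15.1% (11.3 to 20.0) of those in proB and preB. The other distal regions were not split by stage for any motif, so whether such an order is particular to broad regions was not tested. The octamer ATGCAAAT of OCT factors was in 0.697% (0.191 to 2.50) of regions broad in WT pre-proB alone and 5.81% (3.08 to 10.7) of those in preB alone, against 2.09% of other distal regions. The E-box CAGCTG, bound by E proteins, was in 33.9% (31.7 to 36.2) of members and 20.5% of other distal regions, and in 50.4% (41.6 to 59.2) of the 121 regions broad in exactly the 4 proB and preB libraries.

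**Figure D5:**
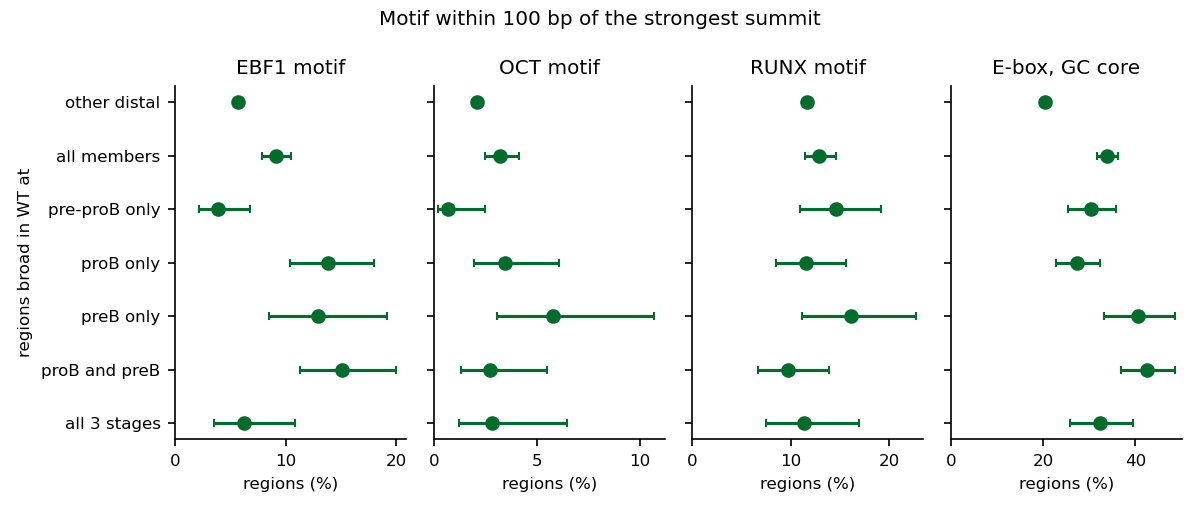
Share of regions (x axis, %) with a motif in the 200 bp around the strongest summit, with 95% Wilson intervals, for other distal regions, all members and members by the WT stages at which they were broad. The EBF1 motif is at 3.83% in regions broad in WT pre-proB alone and at 12.9% to 15.1% in those broad in proB, in preB or in both.

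Summit strength moved with several motifs. Among 4263 other distal regions with a fold of at least 64.0, the median of the members, a set chosen after values had been seen, the EBF1 motif was in 6.85%, CAGCTG in 38.9%, the RUNX motif TGTGGTT in 17.8% and the PU.1 motif GAGGAAGT in 11.5%. The members were at 9.11%, 33.9%, 12.9% and 8.42%. The E-box CAGGTG was in 29.1% of members, 28.8% of these 4263 regions and 20.4% of all other distal regions. The ETS motif CCGGAAGT was in 0.401% against 0.422%, the FOX motif GTAAACA in 3.55% against 2.78%, the TCF motif ATCAAAG in 2.92% against 3.02% and the MEF2 motif TATTTATA in 1.32% against 1.21%. In the 47 regions with a WT pre-proB peak and none in Erg KO and Rescue pre-proB, the EBF1 motif was in 17 (36.2%, 24.0 to 50.5), as in the Erg and Pmf1 windows shown above. Of 2253 other distal regions in the same state 444 held it (19.7%, 18.1 to 21.4). The PU.1 motif was in 1 of the 47 (2.13%) against 4.97% of those others, and the ETS motif in 0 against 0.533%.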

How the data were processed

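Nuclei of sorted cells were tagmented with Tn5 per the labels, although the study's methods name sonication. The authors aligned reads to mm10 with Bowtie2 and called peaks with MACS2 in each library, and the submitters' notes also list CASAVA 1.8.2 and Picard; their options and other versions were not stated in what was read. The deposited peak lists give position, a whole-number score that is the −log10 q multiplied by 10, the fold, a ratio of summit pileup to background, and the −log10 p and −log10 q of the summit. The deposited summit offset located the summit. Peak width depends on depth and on how the caller joins peaks, and read totals are not given.

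Here peaks of at least 2000 bp that did not come within 1000 bp of any of 77161 TSS positions (GENCODE M21 basic) were kept in each list and merged where they overlapped by 1 bp. A width of 0 means no peak, and a looked-up width is that of the widest overlapping peak. A region is named by its host gene, or by its nearest TSS if intergenic. Named regions were the 10 widest, the 3 widest of each WT stage pattern, the 3 widest that were broad in one library and under 1000 bp in the compared one, and those of the genes with most regions and of listed genes. Members, gene lists and comparisons were chosen with earlier results of these data known. Groups follow the sample titles, with 1 library each, so shares carry Wilson intervals and no test was run. Promoter and motif windows used GRCm38 sequence. Python 3.11.15 with pandas 2.3.3, numpy 2.4.6, scipy 1.17.1 and matplotlib 3.10.9 was used, and the TSS distance, overlap, merging and joining steps were tested on simulated data. Some regions and a marker gene that these rules would name are not reported here.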

Additional observations from a re-analysis of the deposited data

Results flagged for a closer look

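The number of broad distal peaks moved in opposite directions between stages when Rescue was compared with WT. Rescue minus WT was 131 at pre-proB, -181 at proB and 148 at preB. The difference between stages was not tested, since each value rests on 1 library per genotype, and WT proB had the most broad distal peaks of all 7 libraries.

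Single regions also moved in opposite directions. At the Sox4 region, near a SOX factor of B-cell progenitors, Rescue was 2559 bp wider than WT at pre-proB and differed by -2530 bp at proB. The Rabepk region differed by 4120 bp at proB and -2445 bp at pre-proB, a Gm14453 region by 1159 bp at preB and -1487 bp at proB, and a Foxp1 region by 1736 bp at preB and -1555 bp at proB. None of these differences between stages was tested.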

How the results depend on the processing

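No paired analysis was possible because each group held 1 library. With 1500 and 3000 bp in place of 2000 bp, the 1746 regions became 4857 and 266, and the peaks per library 1726 and 87, 2366 and 107, and 1867 and 85 along the WT stages, 1944 and 84 in Erg KO, and 2186 and 95, 1944 and 86, and 2306 and 109 along the Rescue stages. Regions broad in WT pre-proB alone became 809 and 58, in proB alone 775 and 45, in preB alone 384 and 22, in pre-proB and proB 185 and 3, in pre-proB and preB 78 and 2, in proB and preB 743 and 36, and at all stages 645 and 23. With the 535 widest distal peaks of each list, proB alone had 181 regions against 311 for pre-proB alone, which turned their order as both other widths did, pre-proB and preB had 41, and proB and preB had 169. The share broad in the second library, at 1500 bp, 3000 bp and the 535 widest, was 48.5%, 29.9% and 34.0% from WT pre-proB to proB, 35.4%, 24.3% and 34.2% from proB to pre-proB, 81.2%, 71.3% and 70.7% from WT pre-proB to Erg KO, 72.1%, 72.6% and 70.7% from Erg KO to WT pre-proB, 83.8%, 72.4% and 69.5% from WT to Rescue pre-proB, and 83.1%, 68.2% and 67.3% from WT to Rescue preB. At 1500 bp and the 535 widest it was 59.0% and 58.7% from WT proB to preB and 59.3% and 58.1% from WT to Rescue proB. With Rescue stages read from the source names, the share from WT was 42.1% at pre-proB, 29.3% at proB and 64.4% at preB, lower than by title, and the share from Rescue was 29.6%, 35.6% and 63.0%, lower at pre-proB and proB and higher at preB. The intron share was 52.6% at 3000 bp. In a 400 bp window the EBF1 motif was in 12.7% of members. A TSS distance of 2500 bp, lists cut to 76465 peaks, joining peaks under 150 bp apart and, chosen after seeing the data, leaving out regions of 50% or more repeat sequence moved none of 28 values each beyond the limits used. Depth limits absence: a stretch without a peak may hold signal below the caller's threshold.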
